A study of Homo sapiens with 32 samples.

Results

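The genes described here encode the eukaryotic translation initiation factors and their close relatives, the EIF genes. They were taken from the GENCODE 44 annotation as protein-coding genes on chromosomes 1 to 22 and X whose symbol is EIF followed by a digit, which gave 55 of 19970 genes. The rule itself uses no measured value, but it was chosen with earlier results of these data known. For each gene, the summits of 4 ChIP-seq lists within 500 bp of its 5′ end were read out as presence, signed distance and score. ChIP-seq recovers chromatin fragments with an antibody and sequences them, and a summit is the position of highest signal within a called peak.

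The cells were HEK293T, an established human embryonic kidney line, in clone ZD29, whose ZNF143 carries an inducible degron tag. The tag is a domain through which a small molecule sends ZNF143 to degradation. Every sample came from this single clone, although the labels of the individual NRF1 and YY1 samples do not repeat the genotype. Cells were either left untreated or exposed to the degrader dTAGV-1 (50 nM, 30 minutes), and both kinds were precipitated for SP1, NRF1 and YY1 (4 samples per antibody and treatment), for the HA tag on ZNF143 and in a mock precipitation (2 each). The labels of both untreated and treated ZNF143 and SP1 samples name their list, while those of the NRF1 and YY1 samples name none, so which samples each list covers is not stated. The 4 summit lists give 1 value per summit and none per sample or treatment, so treated cells were not compared with untreated cells and no replicate error exists for any value below. The lists hold no read counts, the depth of each sample is unknown, and the mock samples have no list among those analysed here.

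The lists held 16165 ZNF143, 126181 SP1, 39180 NRF1 and 106578 YY1 summits on these chromosomes. Each summit has a score on a −log10 scale (of p or of q, which is not stated), and it grows with depth. A score is therefore given with its rank in its own list: "top 2%" means that 2% of the summits of that list scored as high or higher. The lowest score in the top 10% was 1684 in the ZNF143 list, 229.5 in the SP1 list, 354 in the NRF1 list and 142 in the YY1 list.

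Translation initiation begins when the eIF2 complex brings the initiator tRNA to the small ribosomal subunit. The eIF4 proteins recognise and unwind the capped 5′ end of the mRNA, eIF3 bridges mRNA and ribosome, eIF1 and eIF1A guard the choice of the start codon, and eIF5 and eIF5B lead to joining of the large subunit. Every growing cell needs these proteins. ZNF143, SP1, NRF1 and YY1 are sequence-specific transcription factors known from promoters of broadly expressed genes, and YY1 is known for sites just downstream of transcription starts.

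Most EIF genes had summits of all 4 lists within 500 bp of their gene-record 5′ end, but not under every setting. A ZNF143 summit lay within 500 bp of 37 of the 55 genes (67.3%), against 31.7% of all protein-coding genes. The count was 47 (85.5%) for SP1 against 59.1%, 45 (81.8%) for NRF1 against 48.3%, and 46 (83.6%) for YY1 against 57.8%. Summits of all 4 lists were present at 34 genes (61.8%), against 28.1% of all genes, and summits of 3 lists at 10 genes, against 20.1%. Summits of 2 lists were present at 4 genes (9.48% of all genes) and of 1 list at 1 gene (5.01% of all genes). No list had a summit at 6 genes (10.9%), against 37.3% of all genes. The count with all 4 lists was 26 with lists of equal length (18.1% of all genes) and 23 with the top 50% of each list (16.1%). With a 250 bp window it was 24 (18.9%), so in these settings it was not most of the 55 genes. The comparison set includes genes that are silent in these cells, and expression was not measured here. Base composition also differed: the observed over expected CpG ratio within 500 bp had a median of 0.809 at the EIF genes and 0.688 at all genes, with GC medians of 61% and 59.2%. Its part in the counts was not tested.

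**Figure D1:**
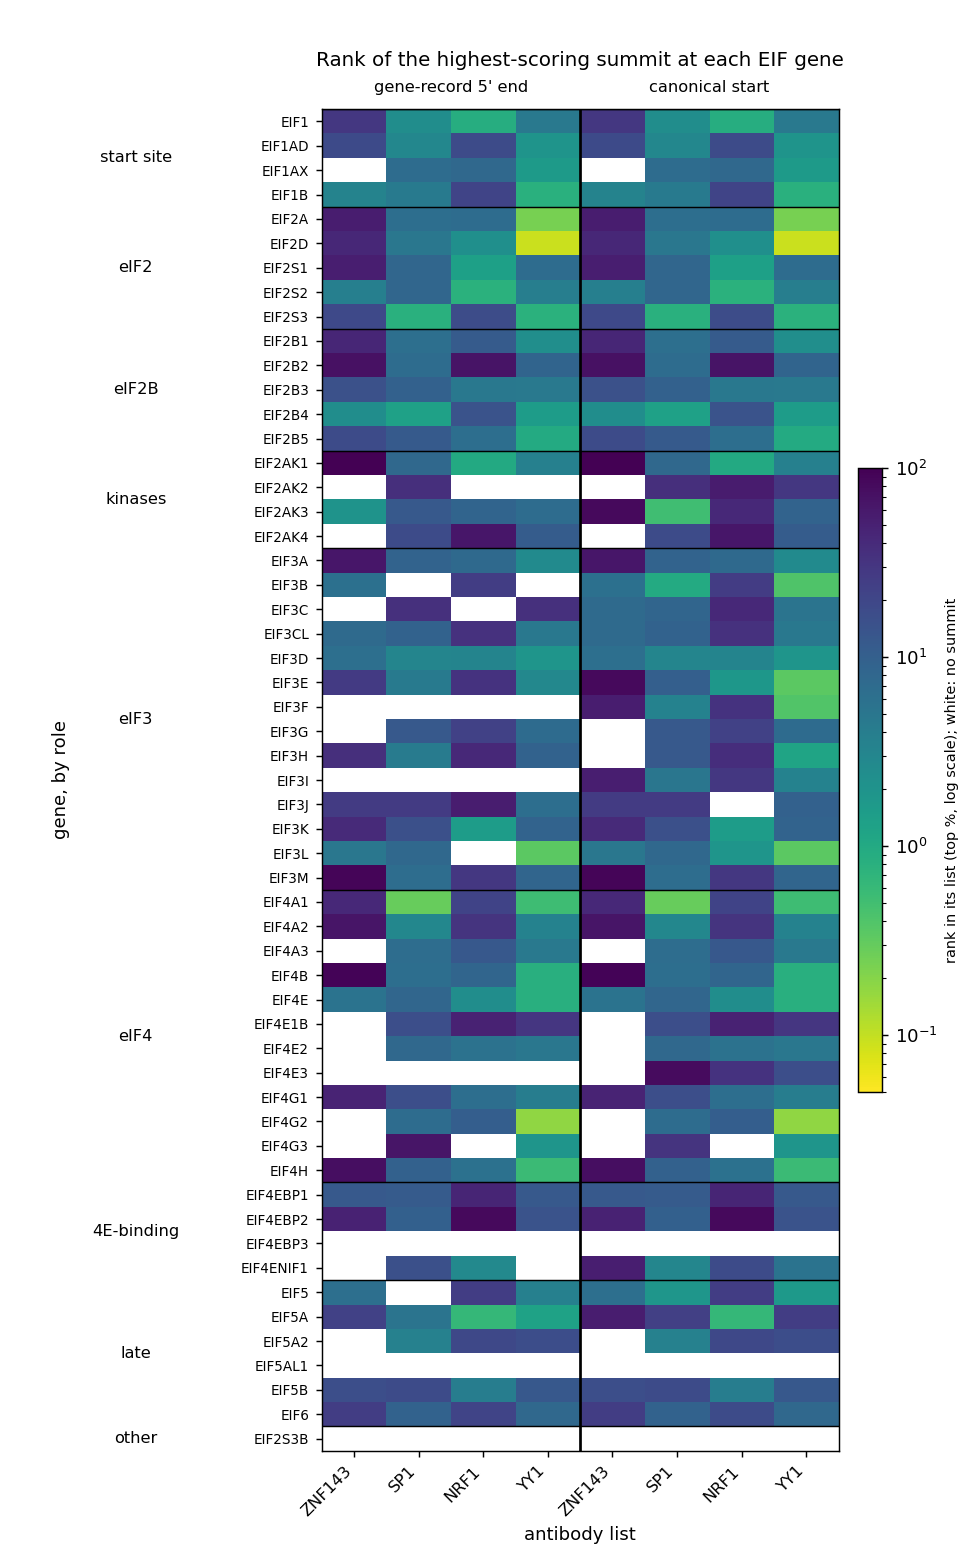
Rank of the highest-scoring summit within 500 bp of each of the 55 EIF genes, in each of the 4 lists (columns), measured from the 5′ end of the gene record (left block) and from the canonical start (right block). Colour is the rank within the list in percent on a log scale, white is no summit, and rows are grouped by role. Colours are read within a list and are not compared between lists, which differ in length. ZNF143 is the list with the most white cells. ZNF143 is also the shortest list. With all lists at an equal length of 16165 summits, gene-record counts were 37 for ZNF143 (31.7% of all genes) and 37 for SP1 (32.6%). They were 38 for NRF1 (40.2%) and 43 for YY1 (36%).

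Strong summits were also more frequent at these genes than at genes at large. The highest-scoring SP1 summit was in the top 10% of its list at 33 genes (60%), against 26.7% of all genes. The YY1 summit was in the top 10% at 39 (70.9%), against 28.5%, and the NRF1 summit at 21 (38.2%), against 15.1%. For ZNF143 this held for 10 genes (18.2%), against 6.47% of all genes, and with a 250 bp window for 6 genes, against 5.52%. The scores of the 37 ZNF143 summits left a gap, since the 10 strongest lay between 3618 and 11645, the next was 1036 at EIF4EBP1, and the remaining 26 were at or below 371, the score at EIF2B3. At the gene records, the median ZNF143 rank was the top 26.8% at EIF genes and 37.8% at all genes with a summit. It was 7.65% against 11.3% for SP1, 11.3% against 18.1% for NRF1 and 3.8% against 10.2% for YY1. The ZNF143 order depended on the 5′ end used and turned round at the starts of the canonical transcripts, as given below. The lists differ in length, so these percentages are not compared between lists.

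The 5′ end of a gene record is its most upstream annotated start, and it can lie far from the start in use. The start of the Ensembl canonical transcript, called the canonical start below, was more than 500 bp away at 13 of the 55 genes (23.6%), against 21.6% of all genes. Measured from the canonical start, ZNF143 was present at 40 genes (72.7%, all genes 34.8%), SP1 at 52 (94.5%, 64.5%), NRF1 at 50 (90.9%, 52.8%) and YY1 at 52 (94.5%, 63.1%). All 4 lists were then present at 39 genes (70.9%), against 31.6% of all genes, 3 lists at 12 (22.2% of all genes), 2 lists at 1 (9.36%) and 1 list at 0 (3.72%). A top 10% summit was then present at 10 genes for ZNF143 (7.02% of all genes), 38 for SP1 (30.1%), 21 for NRF1 (16.8%) and 43 for YY1 (31.7%). Counting either start, ZNF143 was present at 41 genes (36.6% of all genes), SP1 at 52 (66.5%), NRF1 at 51 (55%), YY1 at 52 (65.1%) and all 4 lists at 41 (33.6%). EIF2S3B, EIF4EBP3 and EIF5AL1 had no summit of any list by either start, which held for 31.3% of all genes. The edge of the 500 bp window also cut through some promoters: just inside lay the YY1 summits of EIF3A (497 bp) and EIF4G3 (499 bp) and the ZNF143 summit of EIF3B (500 bp). Just outside lay the NRF1 summit of EIF3L (524 bp), the YY1 and SP1 summits of EIF3B (526 and 548 bp) and the SP1 summit of EIF5 (598 bp, score 1029).

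**Figure D2:**
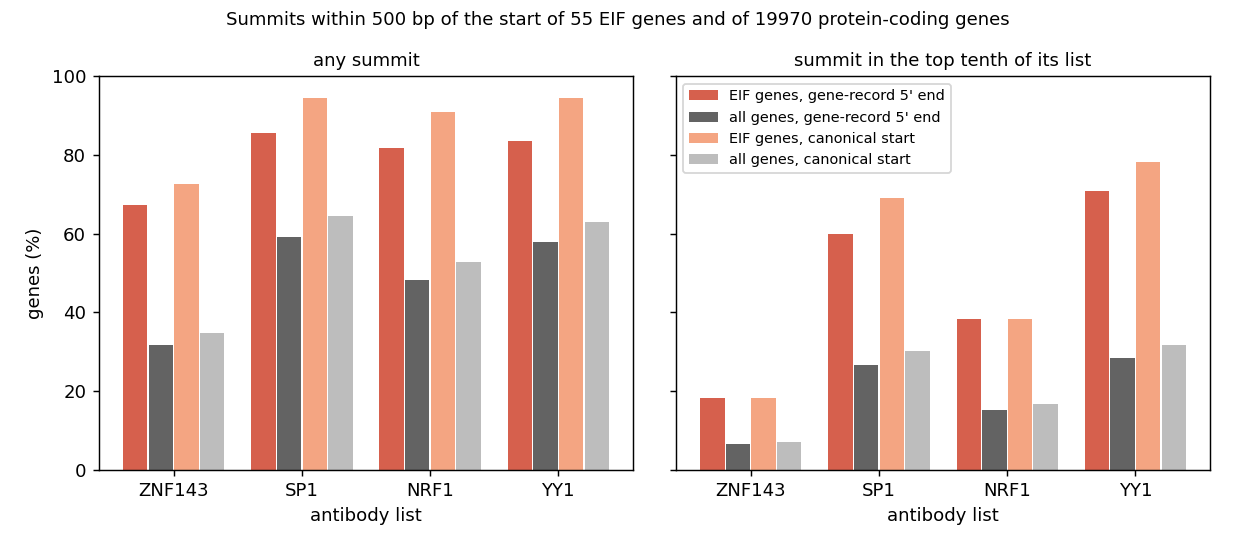
Percent of the 55 EIF genes and of all 19970 protein-coding genes with a summit within 500 bp (left) and with a summit in the top 10% of its list (right), for the gene-record 5′ end and the canonical start. Each bar is a share of genes and has no error bar, since the lists hold no replicates. The EIF bar is the higher of each pair in all 4 lists and by both starts.

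Among the genes for start-site recognition, EIF1B carried the third highest ZNF143 score of the set. EIF1B is a near copy of EIF1, which keeps the scanning ribosome from starting at the wrong codon. Its ZNF143 summit scored 8094 (top 3.31%) at −79 bp, its YY1 summit 2072 (top 0.813%) at −38 bp and its SP1 summit 521 (top 4.45%) at −94 bp, while its NRF1 summit scored 31.15 (top 21.3%). EIF1 itself had an NRF1 summit of 10760 (top 0.881%) at −180 bp, an SP1 summit of 854 (top 2.43%) at −69 bp, a YY1 summit of 318 (top 4.65%) at +324 bp and a ZNF143 summit of 41.2 (top 29.6%) at −96 bp. The high ZNF143 rank was thus that of EIF1B and the high NRF1 rank that of EIF1. EIF1AX, the X-linked gene of eIF1A, had no ZNF143 summit within 2204 bp, but a YY1 summit of 1103 (top 1.60%) at 344 bp downstream and an NRF1 summit of 999.8. EIF1AD, which encodes a protein with an eIF1A domain and shares its 5′ region with BANF1, had ZNF143 at 198 (−84 bp), SP1 at 721 (−111 bp, top 2.98%), NRF1 at 50.2 (−143 bp) and YY1 at 881 (−89 bp, top 1.93%).

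All 5 genes of the eIF2 group had summits of all 4 lists, and in all 5 SP1 and YY1 were in the top 10%. The eIF2 complex holds the initiator tRNA and consists of EIF2S1 (alpha, the subunit that stress kinases phosphorylate), EIF2S2 (beta) and EIF2S3 (gamma, the GTP-binding subunit). EIF2S1 and EIF2S2 stood out by NRF1, with scores of 8995 (top 1.34%, −73 bp) and 11199 (top 0.771%, −99 bp). EIF2S2 also had a ZNF143 summit of 7137 (top 3.78%) at −125 bp, whereas that of EIF2S1, which faces ATP6V1D, was 12.15 (top 52.2%) at −231 bp and that of EIF2S3 172 (top 18.8%). EIF2S3 was marked by SP1 instead, at 1755 (top 0.812%, −311 bp), and by YY1 at 2142 (top 0.771%, +30 bp). EIF2A and EIF2D encode single-chain proteins that can deliver tRNA without eIF2, and they had the third and the first YY1 score of the set: 5299 (top 0.235%) at EIF2A, 147 bp downstream, and 9183 (top 0.092%) at EIF2D, 38 bp downstream. Their ZNF143 scores were 10.8 and 18.1. The other summits of EIF2S1 were SP1 at 289.9 (−226 bp) and YY1 at 216.5 (−198 bp).

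The stretch upstream of EIF2S2 (chr20:34088309-34112243, minus strand, hg38) is shown because EIF2S2 was the only gene among the 5 highest scores of both ZNF143 and NRF1. The 200 bases that end just before its 5′ end (chr20:34112244-34112443, gene orientation) overlap no annotated exon. Capitals mark, on either strand, GCGCANGCG for NRF1, ACTACAA as the left part of the ZNF143 element, and GGGCGG for SP1.
EIF2S2: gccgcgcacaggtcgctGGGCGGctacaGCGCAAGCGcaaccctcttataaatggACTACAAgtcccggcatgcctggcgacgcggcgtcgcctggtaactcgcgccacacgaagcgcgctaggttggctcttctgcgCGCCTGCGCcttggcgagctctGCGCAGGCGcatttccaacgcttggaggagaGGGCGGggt
The ZNF143 summit lies 17 bp downstream of the middle of ACTACAA, and the NRF1 summit lies between the NRF1 patterns.

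The 5 genes of eIF2B also had all 4 lists each. eIF2B reloads eIF2 with GTP, and its 5 subunits are encoded by EIF2B1 to EIF2B5, the last holding the catalytic site. EIF2B4 had the second highest ZNF143 score of the set, 10621 (top 2.38%) at −174 bp, with SP1 at 1342 (top 1.28%, −146 bp), YY1 at 1161 (top 1.51%, −298 bp) and NRF1 at 97.4 (−136 bp). The 5′ end of SNX17, on the opposite strand, lies at −158 bp, so these summits cannot be assigned to either gene. EIF2B5 (YY1 1812, top 0.959%; NRF1 1748, top 6.42%) and EIF2B3 (NRF1 3256, top 4.76%) had ZNF143 summits of 206 and 371. EIF2B1, which faces GTF2H3, had ZNF143 at 16.8 (−16 bp), SP1 at 389 (0 bp), NRF1 at 219.6 (−15 bp) and YY1 at 708 (−78 bp), and EIF2B2 had weak ZNF143 (6.27) and NRF1 (4.09) summits beside SP1 at 352.

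Of the 4 kinases that phosphorylate eIF2 under stress, 2 had a ZNF143 summit and all 4 lists, and all 4 had SP1. EIF2AK1, the heme-regulated kinase, had an NRF1 summit of 10206 (top 0.998%) at −126 bp and a ZNF143 summit of 2.11, close to the lowest score of that list. EIF2AK2, the kinase of double-stranded RNA, had only an SP1 summit of 27 (top 36.4%) within 500 bp of the gene record, and at its canonical start 542 bp downstream it added an NRF1 summit of 5.15 and a YY1 summit of 36.65. EIF2AK4, the sensor of uncharged tRNA, had SP1 at 103.5, NRF1 at 4.44 and YY1 at 128.6, none in the top 10%, and no ZNF143. EIF2AK3, the kinase of the endoplasmic reticulum, had the highest ZNF143 score of the set, 11645 (top 2.03%) at −49 bp, with SP1 at 180.3 (−57 bp), NRF1 at 631 (−21 bp) and YY1 at 215 (−5 bp). These values depend on the annotation. That 5′ end faces RPIA, which starts at −155 bp on the opposite strand, and lies 64054 bp upstream of the canonical start, where the ZNF143 summit scored 4.35 (top 83.2%) and the SP1 summit 2259 (top 0.513%).

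eIF3 is the largest initiation complex, and 14 genes here belong to it (EIF3A to EIF3M and the copy EIF3CL). From the canonical starts, all 14 had SP1, and all 14 had a YY1 summit in the top 10%, NRF1 was present at 13 and ZNF143 at 12. From the gene records the counts were 11 for SP1, 11 for YY1 (10 in the top 10%), 10 for NRF1 and 10 for ZNF143. Strong ZNF143 summits lay at EIF3L (5637, top 4.86%, +482 bp), EIF3B (4518, top 5.96%), EIF3D (4359, top 6.16%), EIF3CL (3618, top 7.13%) and, from its canonical start, EIF3C (3542, top 7.27%). EIF3L, which faces ANKRD54, had SP1 at 313 (+454 bp), a YY1 summit of 4241 (top 0.338%) 437 bp downstream of the gene record, which is −114 bp from the canonical start, and an NRF1 summit of 7565 only within reach of that start. EIF3B, which encodes a scaffold subunit, likewise had its SP1 (1574) and YY1 (3662) summits at 548 and 526 bp, just outside the window of the gene record, its ZNF143 summit exactly at 500 bp, the last position inside, and an NRF1 summit of 19.95 at −103 bp.

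EIF3F and EIF3I had no summit at the gene record and summits of all 4 lists at the canonical starts, 17086 and 1330 bp downstream. EIF3F, a subunit with an MPN domain, then had YY1 at 3738 (top 0.396%) and SP1 at 643 (top 3.46%), and EIF3I, a WD-repeat subunit, had SP1 at 463 and YY1 at 440.0. The gene records of EIF3E and EIF3H begin at the promoters of EMC2 and UTP23, 194779 and 11102 bp upstream of the canonical starts. At its canonical start EIF3E had NRF1 at 7797 (top 1.80%) and YY1 at 4237 (top 0.341%), and its ZNF143 score was 4.45 there. At the gene record it had ZNF143 at 50.5 (−86 bp), SP1 at 515 (−419 bp), NRF1 at 11.6 (−76 bp) and YY1 at 553 (−225 bp). EIF3H had YY1 at 1531 (top 1.17%) at the canonical start and no ZNF143 summit there. At the gene record it had ZNF143 at 26.7 (+429 bp), SP1 at 544 (+475 bp), NRF1 at 7.84 (−345 bp) and YY1 at 157 (+444 bp).

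The other eIF3 genes ranged widely in NRF1. EIF3K, which faces MAP4K1, had NRF1 at 8536 (top 1.50%, −78 bp), ZNF143 at 19.85 (+10 bp), SP1 at 126 (+1 bp) and YY1 at 160.3 (+65 bp). For NRF1, EIF3D had 5184 (top 3.28%) and EIF3A, the largest subunit, had 1094 (top 7.48%). EIF3G, an RNA-binding subunit, had SP1 at 181, YY1 at 207 and NRF1 at 25.3, and its nearest ZNF143 summit lay 13601 bp away. EIF3J and EIF3M had ZNF143 at 53.3 and 3.61, and the NRF1 summit of EIF3J (5.52) lay near the edge of the window, at −489 bp.

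EIF3C and EIF3CL are near-identical copies on chromosome 16, and the 1001 bases around their canonical starts were 100% identical. Reads from this stretch cannot be assigned to a copy by their sequence. The lists nevertheless gave both copies summits with close scores: 3542 and 3618 for ZNF143, 286 and 256 for SP1, 277 and 312 for YY1, and 7.91 and 11.04 for NRF1. From the canonical starts of EIF3C and EIF3CL, the offsets were −60 and −58 bp for ZNF143, −39 and −39 bp for SP1, 138 and 107 bp for YY1, and −111 and 5 bp for NRF1. The gene record of EIF3C starts 22906 bp further upstream, with SP1 at 28.99 (−62 bp), YY1 at 28 (−41 bp) and neither of the other lists.

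Among the eIF4 genes, which encode the cap-binding and helicase proteins, EIF4E carried strong summits of all 4 lists. EIF4E encodes the cap-binding protein itself. Its scores were 4947 for ZNF143 (top 5.47%, −140 bp), 295 for SP1 (top 8.08%, −146 bp), 6547 for NRF1 (top 2.43%, −117 bp) and 2060 for YY1 (top 0.824%, +82 bp). Its relatives had no ZNF143 summit: EIF4E2, a cap-binding repressor of translation, had NRF1 at 2362 (top 5.68%, −61 bp), SP1 at 316 (+94 bp) and YY1 at 299.9 (−38 bp), and EIF4E1B, a germline form, had SP1 at 118 (−68 bp), NRF1 at 6.48 (−25 bp) and YY1 at 34.8 (−343 bp). EIF4E3 had no summit at the gene record and, at a canonical start 29371 bp downstream, SP1 at 4.67 (−317 bp), NRF1 at 11.9 (+390 bp) and YY1 at 81 (+338 bp).

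Among the helicase genes, EIF4A1, the main helicase, had the highest SP1 score of the set, 2998 (top 0.294%) at −159 bp, and a YY1 score of 2900 (top 0.535%) at −257 bp. EIF4A2, its close relative, had SP1 at 722.5 (top 2.97%) at +211 bp and YY1 at 437 at +195 bp. For EIF4A1 and EIF4A2, ZNF143 scored 18.95 (−253 bp) and 7.64 (+211 bp) and NRF1 29.7 (−200 bp) and 12.2 (+78 bp), and EIF4A3, a helicase of the exon junction complex, had SP1 at 363, NRF1 at 155 and YY1 at 320 and no ZNF143 summit. The helicase cofactors EIF4B and EIF4H both had YY1 in the top 1% (2058 and 2796) and NRF1 in the top 10% (756 and 2169.6), with ZNF143 at 3.14 and 5.61.

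The scaffold genes differed in their factors. EIF4G1 had NRF1 at 1665 (top 6.51%, +57 bp), YY1 at 369 (+239 bp), SP1 at 116 (−9 bp) and ZNF143 at 14.6 (+143 bp). EIF4G2 encodes a scaffold that lacks the region that binds eIF4E, and it had a YY1 score of 6186 (top 0.178%) 306 bp downstream, with SP1 at 356, NRF1 at 300.4 and no ZNF143. EIF4G3 had YY1 at 883 (top 1.92%) at 499 bp, just inside the window, SP1 at 8.24 (+104 bp) and neither NRF1 nor ZNF143.

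The genes grouped here as 4E-binding proteins (EIF4EBP1, EIF4EBP2, EIF4EBP3 and EIF4ENIF1) had no YY1 summit in the top 10% at the gene records. EIF4EBP1, a target of mTOR signalling, had ZNF143 at 1036 (top 11.8%) at −97 bp, and EIF4EBP2 had 14.5, with SP1 at 199 and 233 and YY1 at 117 and 94.3. EIF4EBP3 had no summit of any list within 9799 bp. EIF4ENIF1, which carries eIF4E into the nucleus, had SP1 (122) and NRF1 (5966, top 2.77%) at the gene record. At its canonical start 6266 bp downstream it had SP1 at 713.5, YY1 at 264 (top 5.56%), NRF1 at 50.2 and ZNF143 at 11.9.

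Of the genes for subunit joining and later steps, EIF5A had the highest NRF1 score of the set. EIF5A encodes the hypusine-bearing factor that helps the ribosome through difficult peptide bonds. Its NRF1 summit scored 11825 (top 0.633%) at 363 bp downstream of the gene record, which is −266 bp from the canonical start, and SP1 (440.3, −52 bp), YY1 (1414, −102 bp) and ZNF143 (87.8, −60 bp) summits lay around the gene record. Its tissue-restricted relative EIF5A2 had SP1 at 626 (top 3.59%, −140 bp), NRF1 at 41.3 (+54 bp), YY1 at 78.6 (−225 bp) and no ZNF143. The copy EIF5AL1 had none, and its nearest summit of any list was an SP1 summit at −2746 bp. EIF5, the GTPase activator of eIF2, had ZNF143 at 4362 (top 6.15%), and from its canonical start SP1 at 1029 and YY1 at 1022. EIF5B, the GTPase of subunit joining, had NRF1 at 4217 (top 3.95%) at −1 bp with ZNF143 at 297, SP1 at 104.5 and YY1 at 111. EIF6, which keeps the large subunit from joining early, had SP1 at 252 (top 9.28%), YY1 at 190.4 (top 7.58%), ZNF143 at 62.8 and NRF1 at 33.04. The remaining member, EIF2S3B, is a copy of EIF2S3 on chromosome 12, and its nearest summit of any list lay 7550 bp away.

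The 10 highest ZNF143 scores of the gene records are shown next, in falling order, with 30 bases of hg38 each in gene orientation, because they differ in how much of the known element they hold. Capitals mark ACTACAA and CCCANNATG, the left and right parts of the element, on either strand. Where a part lies within 50 bp of the summit the stretch is centred on it, and the summit itself can lie outside; otherwise it is centred on the summit. Of the 10, 5 have a part within 50 bp and 5 have neither. Only exact matches were counted. EIF1B (chr3:40309613-40309642) has both parts beside each other. EIF2AK3 (chr2:88691514-88691543) and EIF3D (chr22:36529457-36529486) match the right part only. EIF2S2 (chr20:34112370-34112399) and EIF3CL (chr16:28403882-28403911) match the left part only. In the place of the unmatched part, EIF2AK3 reads actacca and EIF2S2 reads cccggcatg, which resemble ACTACAA and CCCANNATG without matching them. Neither part was found within 50 bp of the summit at EIF2B4 (chr2:27370497-27370526), EIF3L (chr22:37849336-37849365), EIF4E (chr4:98929258-98929287), EIF3B (chr7:2354572-2354601) and EIF5 (chr14:103333981-103334010). Further out at EIF2B4, ACTACAA lay at −112 bp and CCCANNATG at −299 bp from the 5′ end, with the ZNF143 summit at −174 bp. This CCCANNATG overlaps the YY1 pattern AANATGGCG, and the YY1 summit lay beside it at −298 bp.
EIF2AK3: gactaccaatCCCATAATGctctccgcgac
EIF2B4: tagggagcccaaagtggagttggccctcat
EIF1B: cagaaaACTACAAgtCCCAGGATGctcggc
EIF2S2: cttataaatggACTACAAgtcccggcatgc
EIF3L: ggaaaggcttccggtttcccggcaggcccg
EIF4E: actccacttcccagaagcctctcgttactc
EIF3B: agggggaggacgccatgttggacggaacca
EIF5: aagggctgcgccgcgaagacctctgggaaa
EIF3D: cgccgcgaagCATTGTGGGacacagaaggg
EIF3CL: gccactgggagTTGTAGTctcccagtgtag
The right part lay within 50 bp of the strongest ZNF143 summit at 6 of the 37 EIF genes with one (16.2%), against 5.39% of all 6323 such genes, and the left part at 4 (10.8%) against 6.26%. The right part was found not only at EIF1B, EIF2AK3 and EIF3D but also at EIF2D, EIF4A1 and EIF4B. The ZNF143 scores of these last genes were 18.1, 18.95 and 3.14. At EIF4B it overlaps AANATGGCG, the YY1 pattern.

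The 10 highest NRF1 scores are shown the same way, with GCGCANGCG on either strand in capitals. The pattern lies within 50 bp of the summit at 6 of them, EIF5A (chr17:7307319-7307348), EIF2S2 (chr20:34112286-34112315), EIF1 (chr17:41688719-41688748), EIF2AK1 (chr7:6059291-6059320), EIF3K (chr19:38618976-38619005) and EIF2D (chr1:206612619-206612648). It was not found at the other 4, EIF2S1 (chr14:67360241-67360270), EIF4E (chr4:98929235-98929264), EIF4ENIF1 (chr22:31496420-31496449) and EIF3D (chr22:36529186-36529215).
EIF5A: gctccttattGCGCAGGCGcaaggactgcc
EIF2S2: ctcttctgcgCGCCTGCGCcttggcgagct
EIF1: cagacttcctGCGCAAGCGccatcccatgt
EIF2AK1: cccaccagaGCGCATGCGCcgggggtacgc
EIF2S1: cttgttctcggaggacccagactctatggt
EIF3K: ccacgagaggCGCCTGCGCactgggatcca
EIF2D: cgagccgctcGCGCAGGCGcagagccaggc
EIF4E: gttactcacgcagccgcagtcttgcgcagg
EIF4ENIF1: ccagaccccggggcttgcgcagcctcagtc
EIF3D: gacagcgccggtcgtgtttacggcggcgcc
At EIF2AK1 the pattern overlaps itself on both strands. The pattern lay within 50 bp of the strongest NRF1 summit at 12 of 45 EIF genes (26.7%), against 21.8% of 9643 genes.

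For SP1, GGGCGG lay within 50 bp of the strongest summit at 19 of 47 EIF genes (40.4%), against 43.4% of 11807 genes, a share close to the background. EIF4A1 (chr17:7572630-7572659) and EIF2B4 (chr2:27370462-27370491), the first and the third SP1 score of the set, each hold a copy, shown in capitals, as do 5 of the 10 genes with the highest SP1 scores.
EIF4A1: aatgaggctgcgGGGCGGgccttcaccttg
EIF2B4: cccgtagtgcgGGGCGGggcctcggggccc
EIF2S3, with the second score, has none within 50 bp.

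The YY1 pattern AANATGGCG contains an ATG, and in several EIF genes this ATG is the annotated start codon of the protein. This was noticed after the positions had been seen. The canonical transcript starts translation with ATG in 54 of the 55 genes, and in 9 of them (16.7%) the start codon lies in the pattern, against 514 of 19736 genes (2.6%). The 9 were EIF2A, EIF2B5, EIF2S3, EIF2S3B, EIF3E, EIF3H, EIF4B, EIF4E and EIF4E3, and their start codons lay 13 to 35 bp downstream of the canonical start. A YY1 summit lay within 100 bp of the start codon in 7 of the 9 and in 460 of the 514. EIF2S3 and its copy EIF2S3B share this stretch and are not independent. Of the 9 sites, 7 are printed as 24 bases of hg38 in gene orientation, with the pattern in capitals.
EIF2A: tccgggacAACATGGCGccgtcca
EIF2B5: gagagaagAAGATGGCGgcccctg
EIF2S3: cttttggcAACATGGCGggcggag
EIF2S3B: cttttggcAACATGGCGggcggag
EIF4B: cctctcccAACATGGCGgcctcag
EIF4E: atcgatctAAGATGGCGactgtcg
EIF4E3: gggcggagAAAATGGCGctgcccc
They lie at chr3:150546792-150546815 (EIF2A), chr3:184135375-184135398 (EIF2B5), chrX:24054958-24054981 (EIF2S3), chr12:10505892-10505915 (EIF2S3B), chr12:53006473-53006496 (EIF4B), chr4:98929100-98929123 (EIF4E) and chr3:71725355-71725378 (EIF4E3). EIF2S3 and EIF2S3B are identical over these 24 bases. The YY1 summit lay 7 bp downstream of the start codon in EIF2S3 and 66092 bp away in EIF2S3B.

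The distance from start codon to YY1 summit was 10 bp in EIF2B5 (score 1812), 11 bp in EIF3E (4237), 22 bp in EIF2A (5299), 49 bp in EIF3H (1531), 61 bp in EIF4E (2060) and 68 bp in EIF4B (2058). In each of these genes the summit lay downstream of the start codon. In EIF4E3 the nearest YY1 summit (81) was 303 bp downstream. The strongest YY1 summits of the set did not all hold the pattern within 50 bp, which 3 of the 10 highest-scoring did: EIF4G2 has a copy 13 bp from its summit, in an intron of its canonical transcript (the stretch printed overlaps an annotated exon), and EIF2D, with the highest score, has none within 50 bp. The 30 bases at these summits are chr11:10808606-10808635 and chr1:206612412-206612441, the latter centred on the summit.
EIF4G2: cgagtggtacAAAATGGCGgccgcaggcgg
EIF2D: tggctgcccccacggctgagggcctggcag
Within 50 bp of the strongest YY1 summit of the gene record the pattern was found at 5 of 46 EIF genes (10.9%), against 6.56% of 11546 genes, and within 100 bp at 10 (21.7%), against 10%.

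Over the whole 500 bp to either side of the gene record, AANATGGCG was found at 15 of 55 EIF genes (27.3%), against 7.54% of all genes, but within 250 bp at 5 (9.09%), against 5.4%. GCGCANGCG was found at 15 (27.3%) against 14.6%, and GGGCGG at 51 (92.7%) against 72%. The parts of the ZNF143 element were near the background over 500 bp, with CCCANNATG at 9 genes (16.4%) against 14.2% and ACTACAA at 5 (9.09%) against 8.01%. Within 250 bp CCCANNATG was found at 6 (10.9%) against 7.63%, and ACTACAA again at 5 (9.09%) against 4.23%. Patterns of factors for which no antibody was used were included for comparison. CCGGAAG, recognised by ETS family factors, was found at 25 genes (45.5%) against 20.8%, and CACGTG, the E-box of MYC and related factors, at 19 (34.5%) against 18.2%. EIF4E, known as a MYC target, holds 1 CACGTG in the 200 bases before its 5′ end (chr4:98929134-98929333), shown in capitals and in gene orientation.
EIF4E: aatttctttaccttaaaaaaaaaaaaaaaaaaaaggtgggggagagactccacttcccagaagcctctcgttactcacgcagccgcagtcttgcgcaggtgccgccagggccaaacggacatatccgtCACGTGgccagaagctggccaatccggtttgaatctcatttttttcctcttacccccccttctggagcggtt

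**Figure D3:**
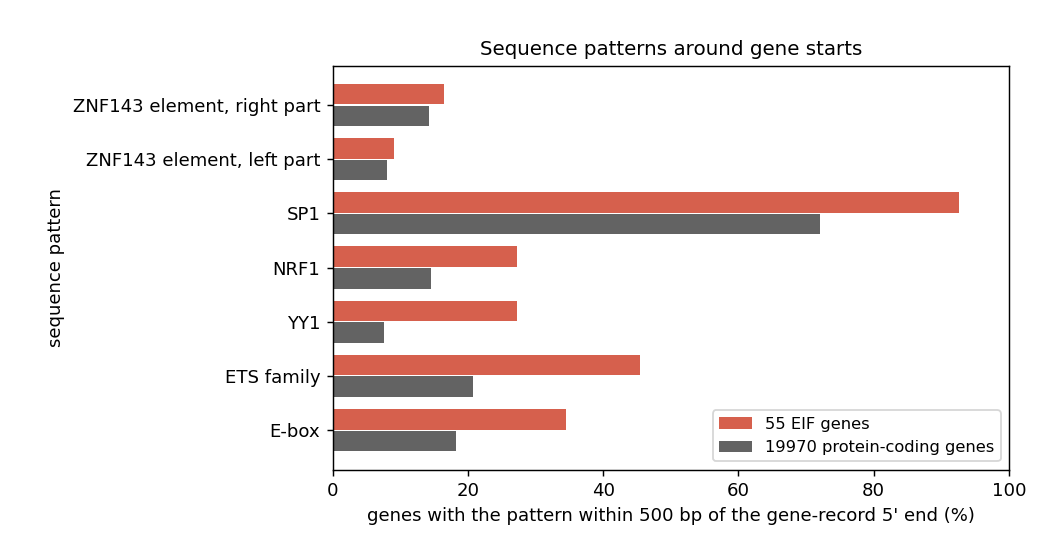
Percent of the 55 EIF genes and of 19970 protein-coding genes with each of 7 sequence patterns within 500 bp of the gene-record 5′ end, on either strand. In this window the widest ratio between the bars is that of the YY1 pattern (27.3% and 7.54%), and the bars of both parts of the ZNF143 element are close to each other.

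From the canonical start, the strongest summit had a median offset of −97 bp for NRF1 (quartiles −169.5 and −32.75), −76.5 bp for SP1 (−121.25 and −34.25), −75 bp for ZNF143 (−147.5 and −3.5) and +48 bp for YY1 (−73.75 and 137.25). The medians over all genes were −66, −73, −59 and +30 bp. YY1 was thus the list with a median downstream of the start in both sets. The summit lay upstream of the canonical start at 41 of 50 genes for NRF1 (82%, all genes 72.8%), 45 of 52 for SP1 (86.5%, 78.7%), 30 of 40 for ZNF143 (75%, 69.8%) and 20 of 52 for YY1 (38.5%, 43.8%). On the canonical transcript, the YY1 summit fell in an intron at 16 genes (30.8%, all genes 14.5%), in a coding exon at 9 (17.3%, 15.2%) and in a 5′ untranslated exon at 7 (13.5%, 26.4%). The coding exons were those of EIF2A, EIF2B5, EIF2S3, EIF3E, EIF3H, EIF2AK4, EIF3M, EIF4A3 and EIF4EBP1. ZNF143 fell in a coding exon at 0 of 40 genes, against 5.15% of all genes.

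Measured from the gene record, the medians were −44 bp for NRF1, −39 bp for SP1, +1 bp for ZNF143 and +93 bp for YY1, against −29, −38, −19 and +60 bp over all genes. The YY1 median was 34 bp against 63 bp with the summit nearest to the 5′ end, and 38 bp against 52 bp with a 250 bp window, so its difference from all genes turned round. ZNF143 and SP1 lay closest together: their strongest summits were within 50 bp of each other at 25 of the 35 EIF genes with both (71.4%), against 47.6% of all genes with both. The YY1 summit lay downstream of the SP1 summit at 34 of 45 EIF genes (75.6%), against 62.6%, and downstream of the ZNF143 summit at 24 of 36 (66.7%), against 57.6%. YY1 had more than 1 summit in the window at 23 of 46 genes (50%, all genes 35.9%), and at 36.5% against 37.2% from the canonical start. ZNF143 had more than 1 at 4 of 37 (10.8%, all genes 13.3%).

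**Figure D4:**
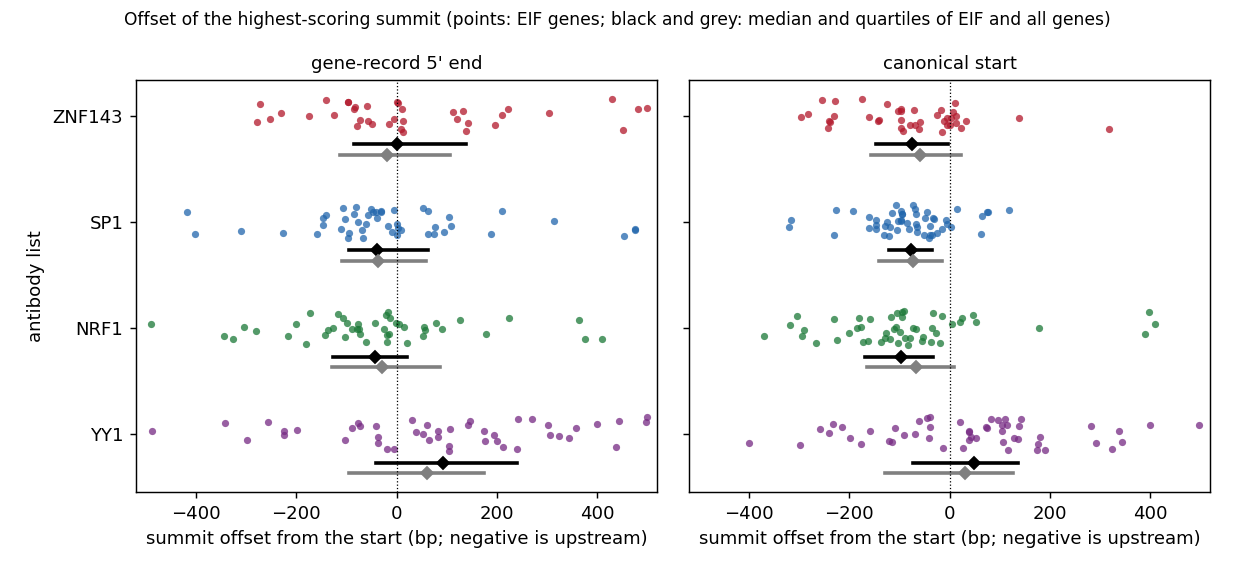
Signed distance in bp from the gene-record 5′ end (left) or the canonical start (right) to the highest-scoring summit at each EIF gene (points), by list. Black and grey diamonds with bars are the medians and quartiles of the EIF genes and of all protein-coding genes. From the canonical start, most ZNF143, SP1 and NRF1 points lie left of 0, and the YY1 median lies at +48 bp.

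A protein-coding gene on the opposite strand began within 1000 bp of 13 of the 55 gene records (23.6%), against 13.4% of all genes. The neighbours were BANF1 (EIF1AD), RPIA (EIF2AK3), GTF2H3 (EIF2B1), SNX17 (EIF2B4), ATP6V1D (EIF2S1), SNX8 (EIF3B), EMC2 (EIF3E), UTP23 (EIF3H), MAP4K1 (EIF3K), ANKRD54 (EIF3L), SNCB (EIF4E1B), TIGD1 (EIF4E2) and GPR27 (EIF4E3). Of these 13 EIF genes, 10 had ZNF143 (18.2% of all 55 genes, against 8.72% of all protein-coding genes) and 8 had all 4 lists (14.5%, against 7.88%). These shares also carry the higher frequency of neighbours at EIF genes. Of the 2679 protein-coding genes with such a neighbour, 1741 had ZNF143 and 1574 had all 4 lists. Summits there cannot be assigned to either gene.

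Other genes of protein synthesis were read out the same way from a list of 38: elongation factors, termination and recycling factors, initiation partners without an EIF symbol, regulators of eIF4E and eIF2, and mitochondrial initiation factors. At the gene records, 23 of 38 had ZNF143 (60.5%), 33 SP1 (86.8%), 28 NRF1 (73.7%), 32 YY1 (84.2%) and 21 all 4 lists (55.3%). The corresponding shares of the EIF genes were 67.3%, 85.5%, 81.8%, 83.6% and 61.8%. At the canonical starts the 38 genes had 81.6%, 100%, 89.5%, 94.7% and 73.7%, and the EIF genes 72.7%, 94.5%, 90.9%, 94.5% and 70.9%, so the order of the sets turned round for ZNF143 and for all 4 lists. No summit lay at the gene records of EEF1A1, BZW1 and MCTS1. A termination factor, GSPT1, had a ZNF143 score of 33395 (top 0.155%), above any EIF gene, and PABPC1, the poly(A)-binding protein that contacts eIF4G, had 10630 (top 2.36%). RPTOR, a subunit of the mTOR complex, had YY1 at 5836 (top 0.199%) and ZNF143 at 5655 (top 4.84%). Among elongation factors, EEF2 had NRF1 at 7624 (top 1.86%), SP1 at 837 and YY1 at 1403, with ZNF143 at 17.4.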

How the data were processed

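ChIP-seq summits were read from 4 deposited lists, 1 per antibody. Which samples each covers is not stated in the labels of the NRF1 and YY1 samples. The authors give column 5 as a −log10 value from 2.00 upward; whether of p or q is not given in the sources used here. The submitters' processing notes name cutadapt, Bowtie2, SAMtools 1.16.1, MACS3, bedtools and hg38, with no role or order. No summit lay beyond a chromosome end of hg38 (count 0).

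Summits were assigned to 5′ ends of GENCODE 44 protein-coding genes within 500 bp, and the highest-scoring one was kept. Patterns were searched on both strands with no mismatch in hg38. Python 3.11.15, numpy 2.4.6 and pandas 2.3.3 were used, and the assignment was tested on simulated data. No statistical test was run. Every member is named; score and offset are given for the 5 highest per list in that list, and in all lists for near copies and genes with an opposite-strand neighbour, and values of further members are descriptive additions made after the data were seen. Members and lists were chosen with earlier results of these data known. The comparison of the YY1 pattern with start codons and the alternative of either 5′ end were chosen after seeing the data. Other alternatives varied the window, the 5′ end, the list threshold and length, near copies, the summit choice and the pattern distance.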

Additional observations from a re-analysis of the deposited data

How the results depend on the processing

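Of 83 alternative values, 74 were counts within 1.5 times the reported count or median offsets inside the order-statistic interval of the reported median. That interval is wide: it held YY1 medians of 34 (nearest summit), 38 (250 bp window), 48 (canonical start) and 105 bp (1000 bp window) beside 93 bp, and NRF1 medians of −97 (canonical start) and −20.5 bp (1000 bp window) beside −44 bp. The number of EIF genes with a top 10% ZNF143 summit went from 10 to 6 with a 250 bp window (all genes 5.52%). The median ZNF143 offset of 1 bp became −75 bp from the canonical start, −53.5 bp with the top 50% of the list, −5 bp with a 1000 bp window and −2 bp with a 250 bp window, so its sign at the gene record has no weight. The SP1 offset went from −39 to −76.5 bp from the canonical start. AANATGGCG was found at 10 genes in place of 5 within 100 bp of the YY1 summit, and at 5 in place of 15 within 250 bp of the gene record (all genes 5.4%). GGGCGG was found at 34 in place of 19 within 100 bp of the SP1 summit. The causes were not tested. No paired analysis was possible because the lists hold no value per sample and no test was run, and for the same reason no replicate could be left out. Depth is unknown, so an absent summit is not shown to be absent binding.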
